A study of Mus musculus with 20 samples.

Results

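Usp2, Lonrf3, Coq10b, Klf9, Klf10 and Klf13 were followed through 20 RNA sequencing libraries of whole mouse adrenal glands. They were chosen by symbol as genes known for daily rhythms in many tissues, outside the core clock loop, and are 6 of 47729 genes in the deposited table. All 6 passed the filter on low values used for testing. The rule that names them uses no measured value, but the genes were chosen with earlier results of these data known.

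The animals formed 4 groups, all with the Cre driver labelled SCC::Cre. The SCC::Cre control females (5 libraries) were 1.5 to 3.4 months old and the SCC::Cre Bmal1 KO females (5) were 2.4 to 3.4 months old. The SCC::Cre control males (6) were 2.9 to 4.7 months old and the SCC::Cre Bmal1 KO males (4) were 2.9 to 3.7 months old. SCC is the name of the side-chain cleavage enzyme, Cyp11a1, a gene of steroid-producing cortex cells, so a Cre under its control acts in the cortex while the glands sequenced also hold medulla, vessels and capsule. Strain, the time of day at collection and the stretch of Bmal1 removed were not stated. The labels do not say that libraries came from separate animals or litters, so a p-value here measures the spread among libraries, part of which may be technical.

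Recovered reads per library ranged from 13421985 to 26742820, and the lowest count of any of the 6 genes in any library was 48 reads of Lonrf3. Arntl, the official symbol of Bmal1, averaged 618 ± 147 (SD, n = 5) normalised reads in females labelled control and 905 ± 71.8 (n = 5) in those labelled Bmal1 KO. In males the averages were 663 ± 238 (n = 6) for control and 923 ± 69.8 (n = 4) for Bmal1 KO. Reads over the whole gene, which include exons outside any deleted part, check nothing about the deletion, so every direction below rests on the labels. The first principal component separated the sexes. On the second every Bmal1 KO library lay at 12.4 or above, control female 1 at 10.4 and every other control at -6.33 or below. All 8 cortex markers and all 10 chromaffin cell markers of the medulla were present, and 3 of 6 kidney markers (Umod, Slc12a1 and Slc34a1) were at or under the floor of 3 reads in every library. In whole glands, fewer cells of a type and less RNA per cell cannot be told apart.

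The circadian clock is a transcription loop in which BMAL1, paired with CLOCK, binds E-boxes in DNA and switches on genes whose products, in turn, repress it. Output genes carry the timing further: some hold E-boxes, others answer to REV-ERB and ROR receptors, to PAR bZIP factors at D-boxes, or to daily signals from outside the cell such as glucocorticoids, temperature, feeding and cyclic AMP. In the adrenal cortex the clock is known for gating the daily release of glucocorticoid. USP2 removes ubiquitin from other proteins and has clock proteins among its substrates. LONRF3 carries a LON domain and a RING finger, the fold found in many ubiquitin ligases. COQ10B is a mitochondrial protein that binds coenzyme Q, the electron carrier of the respiratory chain. KLF9, KLF10 and KLF13 are zinc finger transcription factors of the Kruppel-like family that bind GC-rich DNA: Klf9 is induced by glucocorticoid and thyroid hormone, and Klf10 was first described as an early target of TGF-beta.

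Promoters were read for 5 of the 6 genes, those with an entry in RefSeq (GRCm38.p6), as 250 bases before to 50 after the start. Of these, 3 are shown because their genes gave the clearest differences in these libraries: Lonrf3 by genotype, and Coq10b and Usp2 by sex. Capitals mark the E-box CACGTG in Lonrf3 and Coq10b, the D-box TTATGTAA in Coq10b (read on the opposite strand, so it is printed as TTACATAA) and the short cyclic AMP element TGACGT in Usp2.
Lonrf3: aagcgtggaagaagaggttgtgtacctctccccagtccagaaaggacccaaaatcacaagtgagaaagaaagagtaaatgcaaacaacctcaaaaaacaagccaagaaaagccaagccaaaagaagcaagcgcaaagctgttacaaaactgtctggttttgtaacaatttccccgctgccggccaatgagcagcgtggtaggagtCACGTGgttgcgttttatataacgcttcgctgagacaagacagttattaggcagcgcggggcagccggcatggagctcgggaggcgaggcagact
Coq10b: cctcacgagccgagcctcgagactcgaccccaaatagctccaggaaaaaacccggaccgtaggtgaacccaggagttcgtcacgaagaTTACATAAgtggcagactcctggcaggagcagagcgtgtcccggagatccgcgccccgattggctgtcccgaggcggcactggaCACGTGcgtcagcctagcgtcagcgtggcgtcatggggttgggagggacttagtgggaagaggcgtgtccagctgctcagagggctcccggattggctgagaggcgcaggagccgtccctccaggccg
Usp2: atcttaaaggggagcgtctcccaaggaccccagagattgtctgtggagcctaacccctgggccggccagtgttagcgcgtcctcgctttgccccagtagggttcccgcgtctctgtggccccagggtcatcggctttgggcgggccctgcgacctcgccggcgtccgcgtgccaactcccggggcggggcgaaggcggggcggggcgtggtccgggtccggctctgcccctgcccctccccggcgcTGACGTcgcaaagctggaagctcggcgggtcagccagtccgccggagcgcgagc
The Lonrf3 window is chrX:36328159-36328458, the Coq10b window chr1:55052520-55052819 and the Usp2 window chr9:44084670-44084969, all on the plus strand of GRCm38. The RefSeq start of Usp2 used here lies 17.9 kb inside the annotated gene, so the window belongs to one of several starts. Letters were searched on both strands in 32851 promoters of the same length. CACGTG occurred in 7.15% of them, TTATGTAA in 0.938% and TGACGT in 7.51%. The E-box began at -45 from the start in Lonrf3 and at -78 in Coq10b, and the D-box at -162 in Coq10b. Usp2, Klf9 and Klf13 held TGACGT once each (at -4, -46 and -56) and no CACGTG. The GC box GGGCGG, found in 35.7% of promoters, occurred 3 times in Usp2 and 3 times in Klf13. None of the 5 windows held the heat shock pair GAANNTTC (7.86% of promoters), the ROR element (0.219%), the D-box form TTACGTAA (0.119%) or the glucocorticoid response element (0.475%). A match describes letters only, and its absence says nothing of a factor's action outside the window.

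Loss of Bmal1 was tested first. With the labels taken as given, Lonrf3 was higher in Bmal1 KO glands of both sexes, by 1.62-fold in females and 1.77-fold in males. The other 5 genes, Usp2, Coq10b, Klf9, Klf10 and Klf13, did not pass the test in either sex. Over all 26612 genes tested, 1.75% were called in females and 1.33% in males, against 1 of the 6 genes in each. The test throughout was limma on log2(normalised reads + 1), with Benjamini-Hochberg adjustment over all genes and a gene called at an adjusted p under 0.05. Log2 differences are on that scale and carry their standard error (SE).

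**Figure D1:**
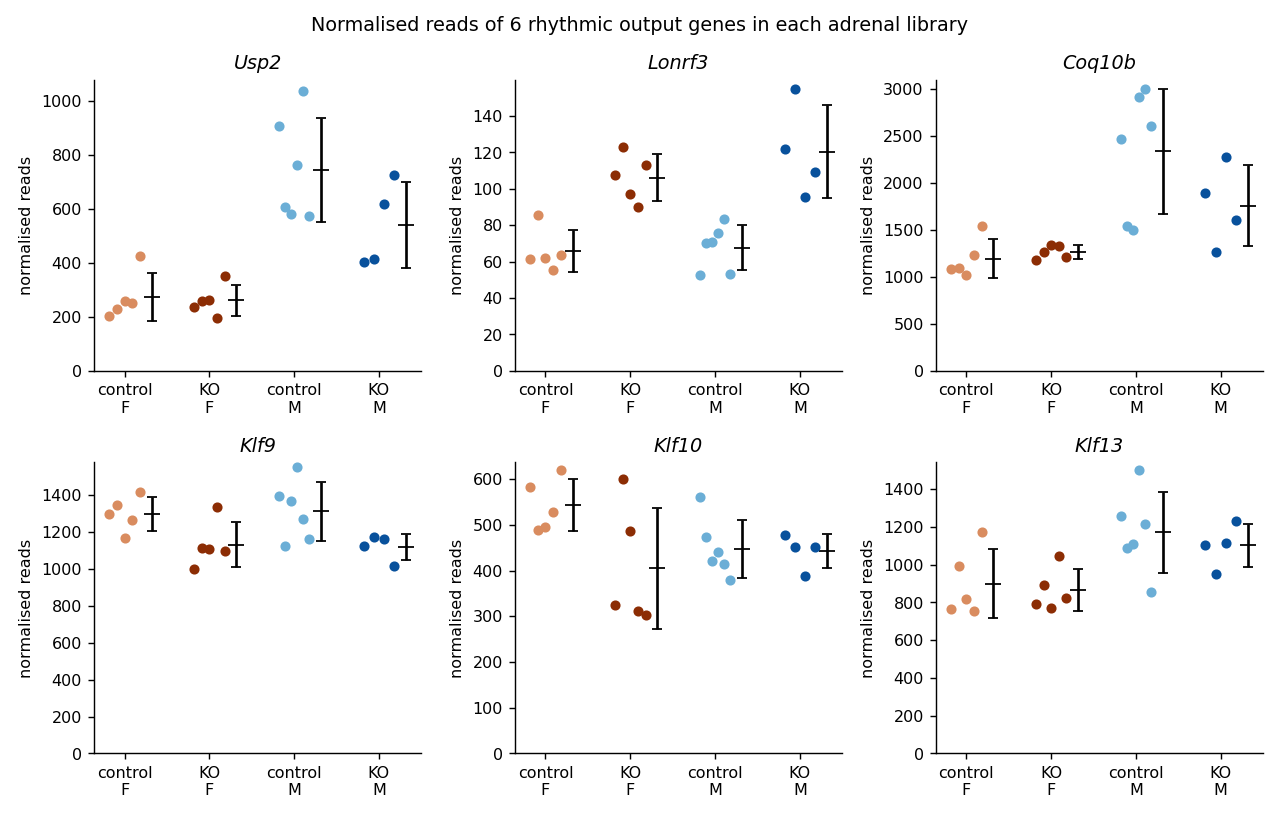
Normalised reads (y axis, linear, from 0) of the 6 genes in each library, by group (x axis, F female, M male); points are libraries, in order of replicate number, and bars give the mean and SD. Lonrf3 separates by genotype in both sexes, with every Bmal1 KO library at or above 89.8 and every control at or below 85.5, while Usp2 separates by sex within each genotype, with control females at or below 425 and control males at or above 571.

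Lonrf3 (chrX:36328353-36362341, plus strand, GRCm38) read 61.4, 85.5, 62.1, 55.2 and 63.8 normalised reads in the 5 control females. In the 5 Bmal1 KO females it read 107, 123, 97.2, 89.8 and 113. The lowest Bmal1 KO female stood just above the highest control female, control female 2, and the other 4 controls lay well below. For 3.25% of all genes tested, the female groups did not overlap in one direction or the other. Group means were 65.6 ± 11.6 (SD, n = 5) and 106 ± 13.1 (n = 5), a log2 difference of 0.69 ± 0.17 with a limma adjusted p of 0.0339. That call was not firm: the adjusted p lay between 0.0543 and 0.0969 when any one female library other than control female 2 or Bmal1 KO female 4 was left out, and was 0.0563 in a fit of the female libraries alone.

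In the 6 control males Lonrf3 read from 52.4 through a median of 70.4 to 83.4. The 4 Bmal1 KO males read 122, 155, 95.6 and 109, and all 4 stood above all 6 controls. The male groups did not overlap for 3.07% of all genes. Means were 67.5 ± 12.4 (SD, n = 6) and 120.3 ± 25.4 (n = 4), a log2 difference of 0.82 ± 0.17 with a limma adjusted p of 0.0145. Bmal1 KO male 2, the highest library at 155, carried part of that: without it the adjusted p was 0.0776, whereas it stayed under 0.05 when any other male library was left out, and it was 0.0694 in a fit of the male libraries alone. Averaged over the sexes, Lonrf3 rose by 0.76 ± 0.12 (limma adjusted p = 0.000496), and no single library decided this value, whose adjusted p ran from 0.000255 to 0.00178 as each was left out. In that comparison 3.81% of all genes were called.

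**Figure D2:**
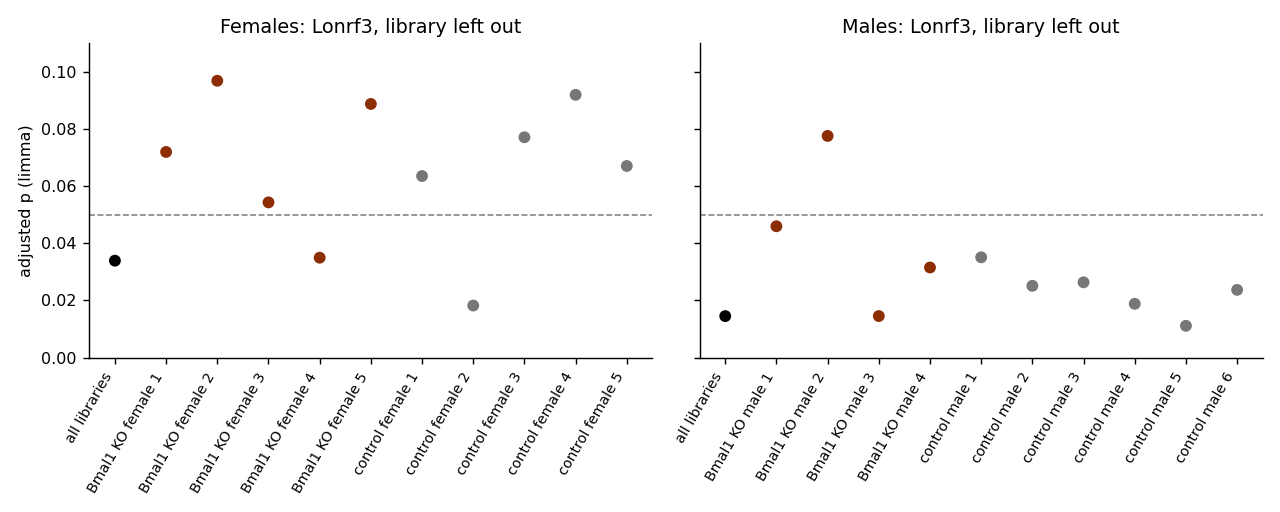
Adjusted p of Lonrf3 (y axis, limma) in females (left) and males (right) with all libraries (black) and with each named library left out (x axis; brown Bmal1 KO, grey control); the dashed line is 0.05. In females 8 of 10 left-out libraries move the value above 0.05, with a highest value of 0.0969; in males only leaving out Bmal1 KO male 2 does so, at 0.0776.

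The 2 other members of the same gene family, Lonrf1 and Lonrf2, were not called in either sex by limma, edgeR or DESeq2, and neither had an unadjusted p under 0.05. Lonrf1 differed by 0.01 ± 0.11 in females and -0.09 ± 0.12 in males, and Lonrf2 by 0.14 ± 0.17 and 0.09 ± 0.17. Beside Lonrf3, the summed level of 8 endothelial markers lay at 15358 to 16263 normalised reads in control females against 16108 to 19753 in those with Bmal1 KO. In males it lay at 15961 to 18572 in controls against 17931 to 20715 in Bmal1 KO. limma and edgeR called none of the 8 in either sex (2 had an unadjusted p under 0.05 in each) and DESeq2 called 1 in females. Emcn and Plvap were called in the average over the sexes, at 0.19 ± 0.05 and 0.27 ± 0.07 (limma adjusted p = 0.0377 and 0.0380). Of 8 cortex markers, Cyp11a1, which carries the name of the Cre driver, and Star fell in males, at -0.71 ± 0.16 and -0.69 ± 0.15 (limma adjusted p = 0.0321 and 0.0238). The 8 had a median of -0.14 in males (5 below 0 and 3 above) and -0.15 in females (7 below 0 and 1 above). Their sum lay at 874245 to 1356954 in control males against 738647 to 1078586 in those with Bmal1 KO, and at 1169197 to 1540597 against 1098868 to 1374920 in females. The groups overlapped in both sexes. In females limma and edgeR called none of these 8 (1 at an unadjusted p under 0.05) and DESeq2 called 1. Red blood cell markers had a median log2 difference of 0.69 in females and 0.25 in males, with 6 and 5 of the 6 above 0. Their summed level lay at 6139 to 17020.2 in control females against 9784 to 20782 in those with Bmal1 KO, and at 6476 to 14766 against 7373 to 18894 in males, so the groups overlapped. Medulla markers had a median of -0.37 in females and -0.21 in males, with 9 and 10 of the 10 below 0. Their sum lay at 126469 to 175469.6 in control females against 112445 to 148125 in those with Bmal1 KO, and at 91971 to 215522 against 120307 to 152117 in males, which overlapped as well. limma, edgeR (which tested 5 of the 6 red blood cell markers) and DESeq2 called none of either list within a sex, with 3 and 4 at an unadjusted p under 0.05 in females and 0 and 1 in males in limma. In the average over the sexes limma called none of the medulla markers, while edgeR called 1 lower and DESeq2 2. Of 8 macrophage markers, Mrc1 fell in females, at -0.59 ± 0.11 (limma adjusted p = 0.00457). edgeR and DESeq2 called 1 there too, and no tool called any in males. The list as a whole did not fall in females, with 4 markers above 0, 4 below and a median of -0.04. Its sum lay at 8499 to 32337 normalised reads in control females against 10729 to 17648 in those with Bmal1 KO. Adipocyte markers had a median of -0.74 in females (7 of 8 below 0) and 0.53 in males (8 above 0). Schwann and sustentacular markers had a median of -0.35 in females (7 of 7 below 0) and -0.03 in males (4 of 7). limma called none of either list within a sex, and DESeq2 called 1 adipocyte marker in males. The 8 lymphocyte markers had a median of 0.38 in females (7 above 0) and 0.09 in males (4 above 0). limma and edgeR called none of them within a sex, with 3 in females and 1 in males at an unadjusted p under 0.05 in limma. DESeq2 called 2 higher in females and 1 lower in males. The part of cell makeup in the Lonrf3 difference was not tested.

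Usp2 (chr9:44067021-44095627, plus strand) read 202, 229, 259, 249.97 and 425 in control females and 236, 259, 260.0, 196 and 352 in Bmal1 KO females. The female groups overlapped almost fully, and the log2 difference was -0.04 ± 0.22 (limma adjusted p = 0.973). Control males ran from 571 through a median of 683 to 1035, and the 4 Bmal1 KO males read 403, 413, 617 and 724. A pair of Bmal1 KO males lay below every control male and the other pair among them. The male log2 difference was -0.47 ± 0.22 with an unadjusted p of 0.0451 and a limma adjusted p of 0.444, so it did not pass. Of 46 other ubiquitin-specific proteases tested (49 listed), limma called Usp50 alone in females (DESeq2 called 2 there), where it fell by 0.34 ± 0.08 (limma adjusted p = 0.0242); in males it stood at -0.23 ± 0.08 (0.224). In males limma, edgeR and DESeq2 called none, and 3 had an unadjusted p under 0.05 in limma. The median of those 46 was -0.07 in females and -0.04 in males, with a median over all genes of 0.00 in both.

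Coq10b (chr1:55052770-55072702, plus strand) read 1086, 1094, 1015, 1228 and 1541 in control females and 1177, 1261, 1337, 1329.97 and 1213 in Bmal1 KO females. All 5 Bmal1 KO females fell inside the range of the controls, and the log2 difference was 0.10 ± 0.18 (limma adjusted p = 0.915). Control males ranged from 1496 through a median of 2534 to 2996, and Bmal1 KO males read 1891, 1265, 2279 and 1603. Control males fell into a low pair, at 1496 and 1544, and 4 libraries at 2466 or above. The male difference was -0.39 ± 0.19 (unadjusted p = 0.0518, limma adjusted p = 0.465). Among 12 genes of coenzyme Q synthesis and the close relative Coq10a, none was called in females or males with limma, 2 and 4 of them at an unadjusted p under 0.05. edgeR called none in either sex, and DESeq2 called 1 in females. Averaged over the sexes, Coq4, which encodes a protein of the coenzyme Q assembly complex, fell by 0.37 ± 0.09 (limma adjusted p = 0.0223).

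Klf9 (chr19:23141226-23168134, plus strand) read 1295, 1343, 1169, 1267 and 1416 in control females and 999.7, 1112, 1109, 1334 and 1098 in Bmal1 KO females. All but 1 of the 5 Bmal1 KO females lay below every control female, and Bmal1 KO female 4 lay among the upper controls. Control males ranged from 1123 through a median of 1319 to 1549.7, and Bmal1 KO males read 1123, 1171, 1164 and 1017. The log2 differences were close in size in the 2 sexes, at -0.20 ± 0.09 in females and -0.22 ± 0.09 in males. Neither difference passed (limma adjusted p = 0.359 and 0.346). Averaged over the sexes the difference was -0.21 ± 0.06, with a limma adjusted p of 0.0674. The call depended on the setting: edgeR gave an adjusted p of 0.04396 and DESeq2 0.0182, and limma gave 0.0252 without Bmal1 KO female 4, 0.0409 without control male 2 and 0.03998 without control male 6. The limma adjusted p was 0.0538 with TMM scaling, 0.0669 with age as a covariate, 0.0684 with a pseudocount of 0.1, 0.0853 with no filter and 0.117 with the replicate number as a block, so none of these passed.

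Klf10 (chr15:38291463-38300706, minus strand) read 584, 488, 496, 529 and 619 in control females and 325, 599.6, 487, 312 and 302 in Bmal1 KO females. Of the Bmal1 KO females, 3 lay between 302 and 325, well under every control, Bmal1 KO female 3 at 486.7 lay just under the lowest control at 488.3, and Bmal1 KO female 2 at 599.6 lay among the upper controls. The log2 difference was -0.47 ± 0.16 (unadjusted p = 0.00649, limma adjusted p = 0.160). Without Bmal1 KO female 2 it was -0.63 with an adjusted p of 0.0186, so that 1 library decides the call. Control males ranged from 379 through a median of 430.05 to 560.3, and Bmal1 KO males read 478, 451, 389 and 452. All 4 lay inside the range of the control males, and the difference was -0.01 ± 0.16 (limma adjusted p = 0.993).

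Klf13 (chr7:63886351-63938915, minus strand) read 762, 992, 817, 753 and 1174 in control females and 791, 894, 769, 1046 and 821 in Bmal1 KO females. Control males ranged from 854 through a median of 1162 to 1502, and Bmal1 KO males read 1105, 950.5, 1117 and 1233. Every Bmal1 KO library fell inside the range of the controls of its sex. The log2 differences were -0.04 ± 0.14 in females and -0.07 ± 0.14 in males (limma adjusted p = 0.953 and 0.919).

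**Figure D3:**
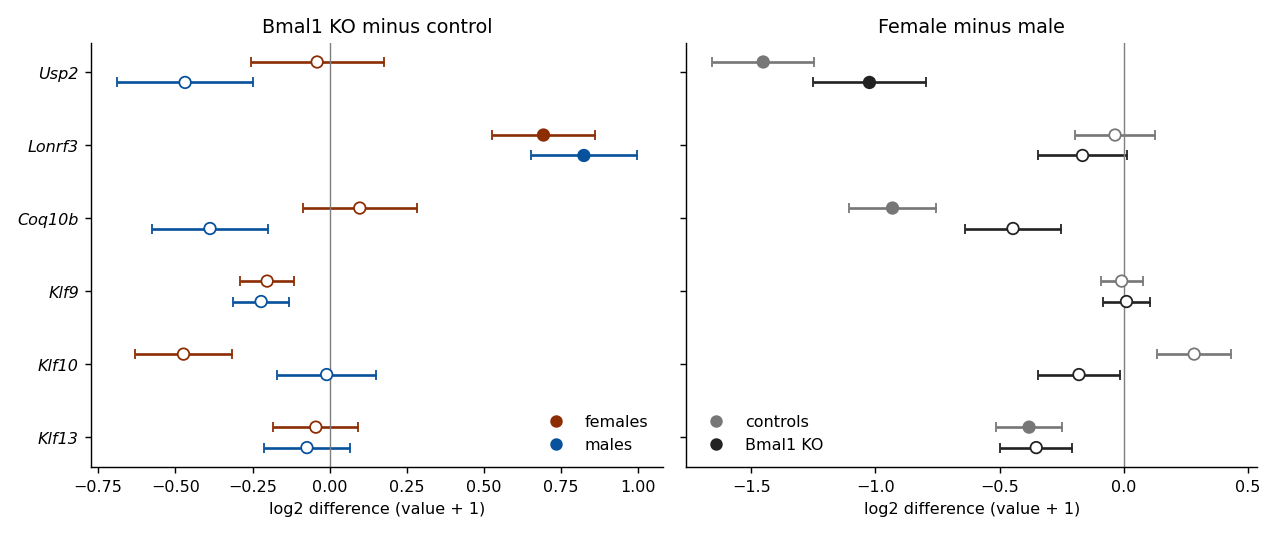
Log2 differences (x axis, value + 1) of the 6 genes for Bmal1 KO minus control (left, by sex) and female minus male (right, by genotype); bars are SE, filled points passed the test (limma, adjusted p under 0.05). Lonrf3 is filled in both sexes on the left, at 0.69 and 0.82; Usp2 is filled in both genotypes on the right, at -1.45 and -1.02, and Coq10b and Klf13 only in controls, at -0.93 and -0.38.

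The 13 other Kruppel-like factors tested (14 listed, with Klf17 at 0 in every library) gave no call by limma in either sex, with 2 at an unadjusted p under 0.05 in females and 4 in males. edgeR called none in either sex, and DESeq2 called 1 in females. Their median log2 difference was -0.13 in females and -0.01 in males. In the average over the sexes limma and edgeR called none (4 at an unadjusted p under 0.05 in limma) and DESeq2 called 3. Klf4, a regulator of differentiation, stood at 0.49 ± 0.15 in that average (limma adjusted p = 0.0712), and Klf12 stood at -0.54 ± 0.18 in females (0.152). Both were named after their values were seen. None of 9 Sp factors, the nearest relatives of the Kruppel-like family, was called in either sex by any of the 3 tools, with 0 at an unadjusted p under 0.05 in females and 1 in males.

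**Figure D4:**
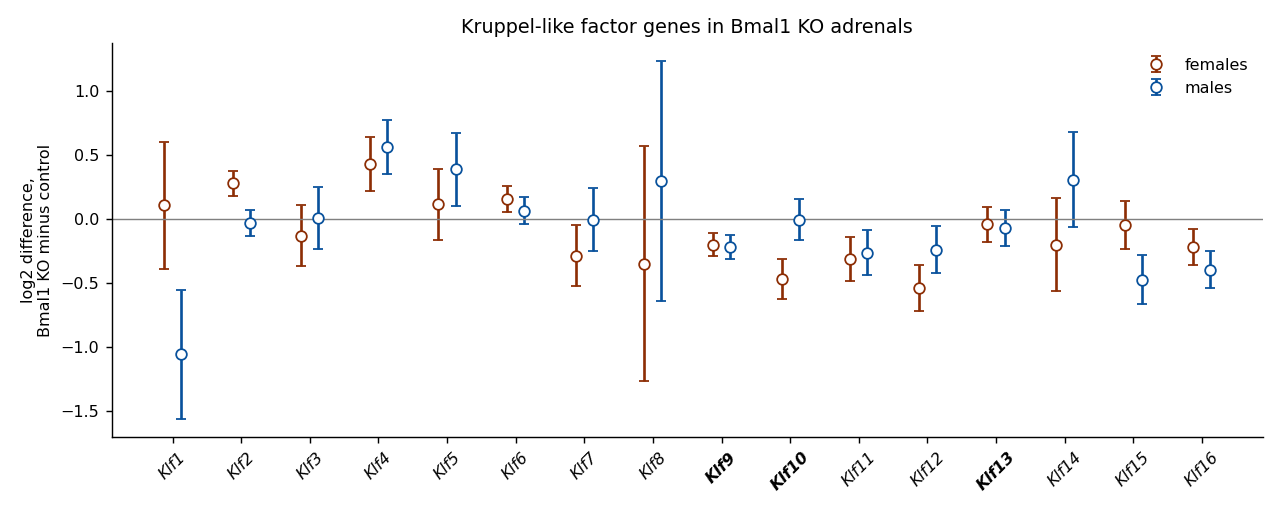
Log2 difference (y axis, Bmal1 KO minus control) of the Kruppel-like factor genes (x axis, the 3 followed here in bold) in females and males; points are limma estimates and bars SE, and all are open because none passed the test. Klf9 lies below 0 in both sexes, at -0.20 and -0.22, and Klf10 in females at -0.47; the widest bars belong to Klf8 and Klf1, which had few reads or widely scattered libraries (Klf8 43.5 ± 66.3 in control females).

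Genes with well-known clock elements were followed in the same libraries. Of 12 E-box clock targets, 5 fell (Nr1d1, Nr1d2, Dbp, Bhlhe41 and Per3) and 1 rose (Per2) in each sex, with a median of -0.74 in females and -0.65 in males. Dbp, a PAR bZIP factor that binds D-boxes, fell, with differences of -2.69 ± 0.15 in females and -2.32 ± 0.16 in males (limma adjusted p = 6.02e-10 and 1.58e-08). Coq10b, which holds both an E-box and a D-box in its window, stood at 0.10 and -0.39, and Lonrf3, which holds an E-box, stood at 0.69 and 0.82. Of 6 targets of REV-ERB and ROR, 4 rose in each sex, Cry1 and Npas2 among them in both. Cry1, a repressor of CLOCK and BMAL1, differed by 3.03 ± 0.12 between female groups and 3.08 ± 0.13 between male groups (limma adjusted p = 2.67e-12 and 2.79e-12). The median of that list was 1.35 in females and 0.91 in males. These lists were drawn up with earlier results of these data known, so their counts are descriptions.

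Genes of the outside signals to which Klf9 and Klf10 are known to answer gave mixed counts. Of 14 glucocorticoid receptor targets, Cdkn1a and Nfkbia rose in females, by 1.04 ± 0.19 and 0.76 ± 0.15, while Fkbp5 stood at -0.11 ± 0.23 and Tsc22d3 at 0.19 ± 0.10 (limma adjusted p = 0.922 and 0.518; both named after their values were seen). In males Cdkn1a and Sgk1 rose, by 1.39 ± 0.20 and 0.30 ± 0.07, and Errfi1 fell by 0.66 ± 0.16. Medians of the 14 were 0.23 in females and 0.04 in males. Of 7 thyroid hormone genes, Crym, which binds thyroid hormone in the cytosol, and the receptor Thra rose in both sexes. Crym rose by 2.22 ± 0.23 in females and 2.16 ± 0.23 in males, and the receptor Thrb rose in females by 0.61 ± 0.11. Of 14 TGF-beta response genes, Id1 and Id3 rose in both sexes and Id2 in males, and Tgfbi fell in males by 0.86 ± 0.19. Id1, an inhibitor of helix-loop-helix factors, rose by 0.77 ± 0.13 in females and 1.06 ± 0.14 in males (limma adjusted p = 0.00254 and 0.000163). Of 11 temperature and heat shock genes, no tool called any in females (4 at an unadjusted p under 0.05 in limma), and the chaperone gene Hspa8 fell by 0.74 ± 0.18 in males. Of 16 immediate early genes, limma called none in either sex, with 0 and 4 at an unadjusted p under 0.05 in females and males, while edgeR and DESeq2 each called 1 in males.

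Whether the genotype difference itself differed between females and males was tested as an interaction. No interaction was found for any of the 6 genes with limma, edgeR or DESeq2, and none had an unadjusted p under 0.05 in limma. Over all genes 0.0301% were called. The female minus male difference of the effects was 0.49 ± 0.26 for Coq10b, 0.43 ± 0.31 for Usp2 and -0.46 ± 0.22 for Klf10. For Lonrf3 it was -0.13 ± 0.24, for Klf9 0.02 ± 0.13 and for Klf13 0.03 ± 0.20.

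The sexes were compared next, within each genotype. In control glands Usp2, Coq10b and Klf13 were lower in females than in males, and Lonrf3, Klf9 and Klf10 did not pass. Of all genes, 26.4% were called in that comparison, against 3 of these 6. In Bmal1 KO glands, where 22.8% of all genes were called, Usp2 alone of the 6 passed. Control females were on average younger than control males, and the fit with age as a covariate is given beside the calls it changed.

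Usp2 showed the widest difference by sex. All 5 control females (202 to 425) lay below all 6 control males (571 to 1035), and all 5 Bmal1 KO females (196 to 352) below all 4 Bmal1 KO males (403 to 724). Groups did not overlap for 13.9% of all genes in controls and for 20.7% in Bmal1 KO. Means in controls were 273 ± 87.8 (SD, n = 5) in females and 742 ± 194 (n = 6) in males, a female level of 0.366 of the male one. The log2 difference was -1.45 ± 0.21 (limma adjusted p = 1.96e-05). In Bmal1 KO it was -1.02 ± 0.23 (limma adjusted p = 0.00239), with means of 261 ± 57.3 (n = 5) and 539 ± 158 (n = 4). The call held as each library was left out, with a highest adjusted p of 0.000113 in controls and 0.0145 in Bmal1 KO. Control female 5, which had the highest Usp2 of the females at 425, also had the highest summed macrophage markers, 32337 normalised reads against 8499 to 13219 in the other control females. Its lymphocyte markers (2155 against 587 to 1102) and red blood cell markers (17020.2 against 6139 to 10659) were the highest of the control females as well. Its part in the Usp2 value was not tested.

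Of the 46 other ubiquitin-specific proteases, 6 were higher and 9 lower in control females, 32.6% of them against the 26.4% over all genes. Usp35, named after its values were seen, was the furthest of those 15 at -0.95 ± 0.20 (limma adjusted p = 0.00136).

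Coq10b was lower in control females, 1193 ± 209.6 (SD, n = 5), than in control males, 2337 ± 663 (n = 6), a log2 difference of -0.93 ± 0.18 (limma adjusted p = 0.000460). Control female 5, at 1541, overlapped the low pair of control males at 1496 and 1544. In Bmal1 KO the means were 1263 ± 70.4 (n = 5) and 1759 ± 431 (n = 4), and the difference of -0.45 ± 0.20 did not pass (limma adjusted p = 0.108). It passed with age as a covariate (-0.57, 0.0274) and without Bmal1 KO male 2 (0.0434), whose Coq10b of 1265 was the only one among the females. Of the 12 coenzyme Q genes, 3 were higher in control females (Coq6, Coq8a and Coq8b) and 2 lower (Coq5 and Coq10a). Coq10a, the closest relative of Coq10b, was lower, at -0.46 ± 0.07 (limma adjusted p = 7.39e-05) and the kinase-like Coq8a higher, at 0.96 ± 0.14 (3.62e-05).

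A processed pseudogene, Gm17971, lies on the same strand within Coq10b and had from 48.6 to 346 normalised reads, 4.74% to 17.7% of the Coq10b value in the same library. It differed by sex in controls, with a log2 difference of -1.77 ± 0.21 (limma adjusted p = 2.14e-06). In Bmal1 KO, where Coq10b did not pass, Gm17971 differed by -1.29 ± 0.23 (limma adjusted p = 0.000345). How reads were divided between Coq10b and Gm17971 was not stated, so the share of one in the other cannot be told apart.

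Klf13 was lower in control females, 899.6 ± 181 (SD, n = 5), than in control males, 1171 ± 215 (n = 6), with a log2 difference of -0.38 ± 0.13 (limma adjusted p = 0.0364). The groups overlapped, with control female 5 at 1174 above 3 of the 6 males and control male 6 at 854 below 2 of the females. This call was lost with age as a covariate (-0.46, adjusted p = 0.0764) and without any one of control females 1, 3 or 4 or control males 1, 4 or 5 (adjusted p 0.0639 to 0.103). In Bmal1 KO the difference was -0.35 ± 0.15 (limma adjusted p = 0.0880). Of 13 other Kruppel-like factors, 3 were lower in control females and none higher, 23.1% of them against the 26.4% over all genes. The 3 were Klf4 at -0.79 ± 0.20, Klf3 at -0.74 ± 0.23 and Klf16 at -0.43 ± 0.14 (limma adjusted p = 0.00512, 0.0200 and 0.0239). These 3 were named after their values were seen. Klf9 was level between the sexes, at -0.01 ± 0.08 in controls and 0.01 ± 0.09 in Bmal1 KO. Klf10 stood at 0.28 ± 0.15 in controls (limma adjusted p = 0.179) and -0.18 ± 0.17 in Bmal1 KO (0.479). Lonrf3, although on the X chromosome, stood at -0.04 ± 0.16 and -0.17 ± 0.18 (0.903 and 0.551).

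Of the lists compared by sex in controls, immediate early genes, which answer quickly to stimulation of a cell, had the median furthest from that of all genes. Of 16 of them, 11 were lower in control females and none higher, with a median of -1.07 against -0.05 over all genes. In Bmal1 KO 6 were lower in females, with a median of -0.46. Egr1 was lower, at -1.43 ± 0.23 and Nr4a1 at -1.08 ± 0.19 in controls (limma adjusted p = 9.59e-05 and 0.000229). Per1, which answers to both the clock and cyclic AMP, was lower, at -1.51 ± 0.17 (1.41e-06), and the glucocorticoid target Fkbp5 at -1.67 ± 0.22 (9.21e-06). All 4 were named after their values were seen. Of the 14 glucocorticoid receptor targets, limma called 5 lower and 1 higher in control females, with a median of -0.28. The higher one was Cdkn1a, at 1.09 ± 0.19 (limma adjusted p = 0.000148). How these values relate to those of Usp2, Coq10b and Klf13 was not tested. Summed cortex markers lay at 1169197 to 1540597 in control females and 874245 to 1356954 in control males. Of those 8 markers, 5 were higher and 1 lower in control females. Medulla markers gave no call with limma, edgeR or DESeq2 in that comparison (1 at an unadjusted p under 0.05) and overlapped, at 126469 to 175469.6 and 91971 to 215522.

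Compared per kilobase of exon, so that genes of different length can be set side by side, Coq10b and Klf9 stood highest and Lonrf3 lowest in every group. In control females Klf9 had 269.6 ± 19.0 (SD, n = 5) normalised reads per kilobase, Coq10b 248 ± 43.6, Klf10 130.0 ± 13.6, Klf13 119 ± 24.1, Usp2 56.7 ± 18.2 and Lonrf3 17.2 ± 3.04. The first 2 and the middle pair in that order lay within one SD of each other. In control males Coq10b led at 486 ± 138 (n = 6), followed by Klf9 at 272 ± 33.1. Klf13 at 155 ± 28.5 and Usp2 at 154 ± 40.2 came next and did not differ beyond their spread, Klf10 had 107 ± 15.1 and Lonrf3 17.7 ± 3.25.

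Within groups, the 6 genes were compared library by library as deviations of log2(normalised reads + 1) from the group mean, over 20 libraries and 15 pairs. Klf9 and Klf13 had the strongest relation, with Pearson r = 0.64 (permutation p = 0.0059, 0.0885 adjusted over the 15 pairs, two-sided) and Spearman rho = 0.55 (permutation p = 0.0192, adjusted 0.288). It was 0.75 in the 10 female libraries and 0.56 in the 10 male ones, and 0.46 without the 2 libraries farthest from the median of Klf9. Usp2 and Coq10b had r = 0.51 (permutation p = 0.0439, adjusted 0.285) and rho = 0.45 (adjusted 0.380), 0.57 in females, 0.53 in males and 0.33 without the 2 farthest libraries. No pair passed adjustment. Lonrf3 was not closely related to any of the others, with r between -0.28 (Coq10b) and 0.17 (Klf13).

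**Figure D5:**
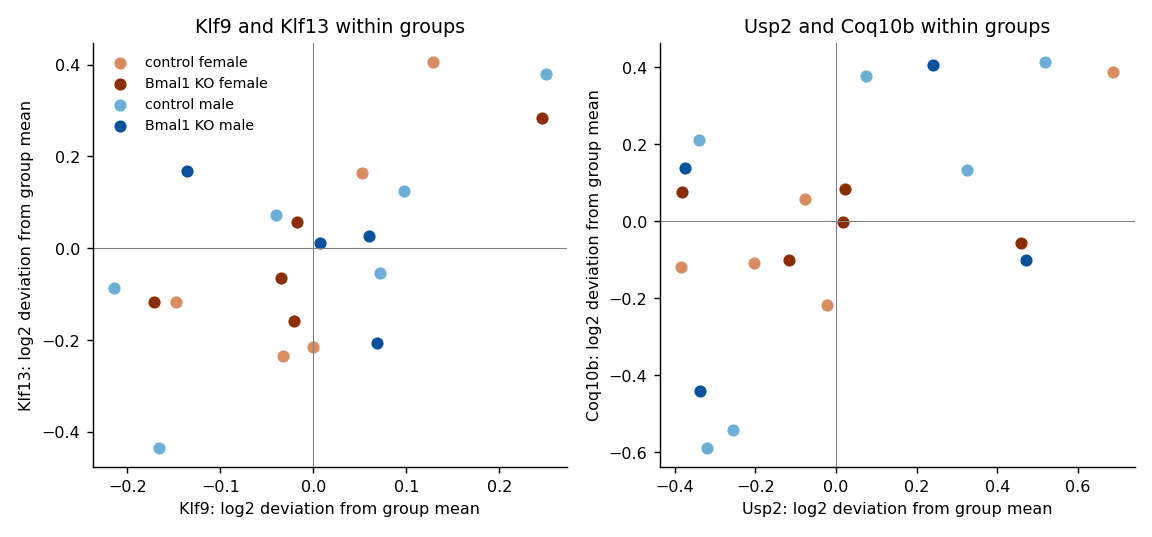
Log2 deviations from the group mean in each library for Klf9 (x) and Klf13 (y) at left and Usp2 (x) and Coq10b (y) at right; colours give the 4 groups. Libraries high in one gene of a pair tended to be high in the other, with r = 0.64 and 0.51 over 20 libraries, and neither relation passed adjustment over 15 pairs.

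The genes closest to each of the 6 were listed by Pearson r over the 20 libraries among 11982 genes with a symbol and a mean of at least 100 normalised reads (11983 for Lonrf3). These libraries share depth, tissue makeup and scaling, so r is a description. By deviations from group means, Lonrf3 was nearest to Stag2 (0.85), a cohesin subunit, Abca1 (0.81), a cholesterol exporter, and Usp53 (0.77). Coq10b was nearest to Frmd6 (0.91), Klf3 (0.87), a transcriptional repressor, and Cpeb4 (0.86), an mRNA-binding protein. Usp2 was nearest to the amino acid transporter Slc38a2 (0.78) and to Clec4a2 (0.78) and Ly86 (0.75), both expressed in myeloid cells. Control female 5 had the largest Usp2 deviation, at 0.69. Of the control females it also had the highest summed macrophage (32337 normalised reads), lymphocyte (2155) and red blood cell (17020.2) markers. The part of that library in these r values was not tested. Klf9 was nearest to Zfp710 (0.79), the kinase gene Dyrk1a (0.77) and Hecw2 (0.76), and Klf10 to Cers4 (0.77), Gm10020 (0.77) and Txnip (0.76). Klf13 was nearest to Tfdp2 (0.79), Hpcal1 (0.76) and Orai1 (0.75). By levels, where sex and genotype count too, Lonrf3 was nearest to Litaf (0.90) and Thra (0.87). Usp2 was nearest to Dvl3, Spty2d1 and Cited1 (0.92 each), and Coq10b to Frmd6 (0.92) and Cpeb4 (0.90). Klf9 was nearest to Cd164 and Sergef (0.76 each), Klf10 to Txnip (0.80), Egflam (0.74) and Eif2ak4 (0.71), and Klf13 to Tfdp2 (0.84), Ptp4a3 (0.83) and Relb (0.82).

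The counting strand was not stated, so reads of overlapping genes on opposite strands cannot be told apart. Usp2 overlaps Gm49380 and Gm39325, which were not found in the deposited table and so have no values here. Coq10b overlaps E330011M16Rik, at 5.73 to 15.4 normalised reads, and Klf13 overlaps Gm27252, at 9.27 to 27.7, and E030018B13Rik, at 0 to 1.80. Mir1192 lies within Klf9 on the same strand, at 0 to 1.85.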

How the data were processed

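RNA was sequenced from whole adrenals; per the labels' protocols, RNA came from a Direct-zol kit and libraries from an Illumina RNA kit. The submitters' processing notes list the builds mm10 and GRCm38 and the tools DESeq2, Salmon, featureCounts, MultiQC and FastQC. Their roles, their versions, the annotation and the strand setting were not stated. The deposited table holds 1 signal value per gene and library made by the authors, a read count divided by 1 size factor per library. All positive values (100%) were whole multiples of 1 read within 0.001 of a read, and reads were recovered on that basis. Depth was 13421985 to 26742820 reads per library. Among the 6 genes it limits precision most for Lonrf3.

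limma 3.58.1 (R 4.3.3) was fitted with a trend to log2(value + 1) of the 26612 genes that reached 1 in 4 or more libraries, over all 20 libraries with group means, Benjamini-Hochberg adjusted over all genes. The deposited values are not raw counts, so limma was used rather than a count test; edgeR 4.0.16 and DESeq2 1.42.0 on recovered reads were alternatives. Other alternatives were a pseudocount of 0.1, no filter, TMM scaling, age as a covariate, the replicate number as a block, fits of 2 groups and each library left out. Gene coordinates are from GENCODE M21 (GRCm38). The script was tested on simulated data.

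The 6 genes and all lists were chosen with earlier results of these data known. From each list, genes called by genotype in females or males were named, at most 4 by size, and for likeness the 3 genes with the highest r; a few genes that meet these rules are not reported here. Genes called only in the average over the sexes or between the sexes were named after their values were seen.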

Additional observations from a re-analysis of the deposited data

Results flagged for a closer look

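In 24 combinations of gene and group, 2 libraries stood apart from the rest of their group by Dixon's test at 95%, a test that flags about 1 group in 20 by chance. Usp2 in control female 5 was at 425 normalised reads, against 202 to 259 in the other 4 control females. That library also had the highest Coq10b, Klf9, Klf10 and Klf13 of its group. Its summed macrophage (32337 normalised reads), lymphocyte (2155) and red blood cell (17020.2) markers were the highest of that group too. Lonrf3 in control female 2 was at 85.5, against 55.2 to 63.8 in the other 4, and without that library the limma adjusted p of Lonrf3 in females was 0.0182. Neither library was left out of any result above unless stated.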

How the results depend on the processing

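Lonrf3 averaged over the sexes kept its direction and its call under all 7 other settings and as each library was left out. The number of the 6 genes called was 0 in females and 0 in males (main 1 each) in a fit of only the 2 groups and also with the replicate number as a block. It was 2 in the average over the sexes with DESeq2 and 2 with edgeR (main 1), and 2 by sex in Bmal1 KO with age as a covariate (main 1). Over all genes DESeq2 called 906 in females (main 467), 730 in males (354), 1631 in the average (1013) and 70 for the interaction (8). A fit of only the 2 groups called 219 in males, and age as a covariate called 0 for the interaction and 3746 by sex in controls (main 7023). With the replicate number as a block 5 genes were called for the interaction, and the limma adjusted p of Lonrf3 was 0.0597 in females and 0.05196 in males. Deviations of same-numbered libraries correlated between -0.0609 and 0.142. Female number 1 gave 0.142, against 0.00712 for the best other number, and female number 5 gave 0.0167 against 0.0376. All same-numbered male libraries gave values below 0. The labels do not say whether the numbers pair the samples, and these values cannot decide it.

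Leaving out each library in turn gave 334 to 481 genes in females, 217 to 484 in males (217 without Bmal1 KO male 4 and 229 without control male 2), 769 to 1221 in the average, 0 to 16 for the interaction, 6060 to 7181 by sex in controls and 4927 to 5720 by sex in Bmal1 KO. Of the 6 genes, 0 to 1 were called in females, 0 to 1 in males, 1 to 2 in the average, 0 for the interaction, 2 to 3 by sex in controls and 1 to 2 by sex in Bmal1 KO. The cause of these changes was not tested.

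Signs turned only for differences near 0 that were not called. With age as a covariate Usp2 in females was 0.035, Klf10 in males 0.031 and Klf9 by sex in Bmal1 KO -0.012, and with TMM scaling Klf9 by sex in controls was 0.013. As libraries were left out, the ranges that crossed 0 were, in females, Klf13 -0.12 to 0.056 and Usp2 -0.16 to 0.13; in males, Klf10 -0.056 to 0.057 and Klf13 -0.16 to 0.0022. For the interaction they were Klf13 -0.047 to 0.13 and Klf9 -0.042 to 0.062, and by sex Klf9 -0.050 to 0.054 in Bmal1 KO and, in controls, Klf9 -0.051 to 0.042 and Lonrf3 -0.13 to 0.029. Among values for single genes under the settings that kept every library, 252 kept direction and call, 4 changed sign, 3 gained a call and 5 lost one. With a library left out 433 kept both, 27 changed sign, 5 gained a call and 15 lost one. Depth limits Lonrf3 most, whose lowest count was 48 reads.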
